A study of Mus musculus with 6 samples.

Results

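The genes described here are 10 markers of homeostatic (resting) microglia: P2ry12, P2ry13, Tmem119, Siglech, Gpr34, Cx3cr1, Sall1, Olfml3, Selplg and Slc2a5. They were found by symbol in a table of 43346 genes, where each matched 1 gene model, and all 10 were among the 16934 genes tested. The table holds cerebellar RNA of 6 mice aged 15 months. The 3 knockout mice (KO) are Tmem106b-/-, homozygous for the loss of a gene whose product sits in the membrane of lysosomes. The 3 wild-type mice are labelled WT, and each genotype has 1 female (replicate 1) and 2 males. The labels give neither the design of the knockout allele nor the strain, and no treatment. Each library is 1 mouse. The study's title names Purkinje cell death and motor deficits, and the question here was whether the resting programme of microglia was kept in the KO cerebellum.

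Microglia are the resident macrophages of the brain. In the healthy tissue they express a set of genes that most other macrophages lack, and this set depends on TGF-beta and CSF1 receptor signals and on transcription factors such as PU.1, IRF8, MEF2C and SALL1. Around damage, lipid debris or dying neurons, microglia commonly lower this set and raise another, the disease-associated genes. RNA of whole tissue cannot tell fewer cells of a type from less RNA per cell, which holds for every value below.

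Library totals ran from 25245778 to 28584165 counts in KO and from 29658618 to 31135185 in WT, and all 6 samples had an RNA integrity number of 10. Tmem106b stood at 69.7, 67.9 and 62.7 CPM (counts scaled to library size, with TMM factors) in KO mice, against 230, 267 and 238 CPM in WT mice, so 27.2% of the WT level was still counted (log2 fold change -1.88, SE 0.08, edgeR adjusted p = 1.37e-04). The tissue is labelled brain and, in the protocol, cerebellum, and Cbln3, a cerebellar granule cell gene, was at 2168 ± 102 CPM in KO and 2109 ± 206 CPM in WT (SD, n = 3 each). Car8, a Purkinje cell gene, fell to 1242 ± 150 CPM in KO, against 1907 ± 119 CPM in WT (SD, n = 3 each; edgeR adjusted p = 0.0214), a call lost without KO replicate 2, WT replicate 2 or WT replicate 3. The libraries differed in choroid plexus content, since the 10 choroid plexus markers summed to 2303 to 7273 CPM in KO, against 291 CPM in WT replicate 1, the WT female, and 4553 and 6788 CPM in the WT males.

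The fold changes of the homeostatic genes went in both directions. Their median log2 fold change (KO over WT) was 0.04, beside 0.00029 over all genes tested, with 5 members above 0 and 5 below. The largest differences upward were those of Cx3cr1, Gpr34 and Olfml3, at 1.34, 1.31 and 1.24 times the WT level, and the largest downward was that of Sall1, at 0.80 times. In edgeR's quasi-likelihood test, 0 of 10 members passed a Benjamini-Hochberg adjusted p of 0.05 in either direction, where 0.283% of all genes did. The count was 0 in limma-voom and 1 in DESeq2, which called Cx3cr1. At an unadjusted p under 0.05 there were 3 members, Cx3cr1, Gpr34 and Olfml3, where 8.96% of all genes met that mark. In 4 members every KO mouse lay above every WT mouse, as in 7.77% of all genes, and in 0 members did every KO mouse lie below, as in 6.35%. The members' summed level was 101, 109 and 111 CPM in KO mice, against 98.6, 88.3 and 100.4 CPM in WT mice, and Cx3cr1 alone made up 30.4% of it over the 6 libraries. Every KO sum lay above every WT sum, though KO replicate 1 (101.4 CPM) only just passed WT replicate 3 (100.4 CPM). With Cx3cr1 taken out of the sums, the groups overlapped.

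**Figure D1:**
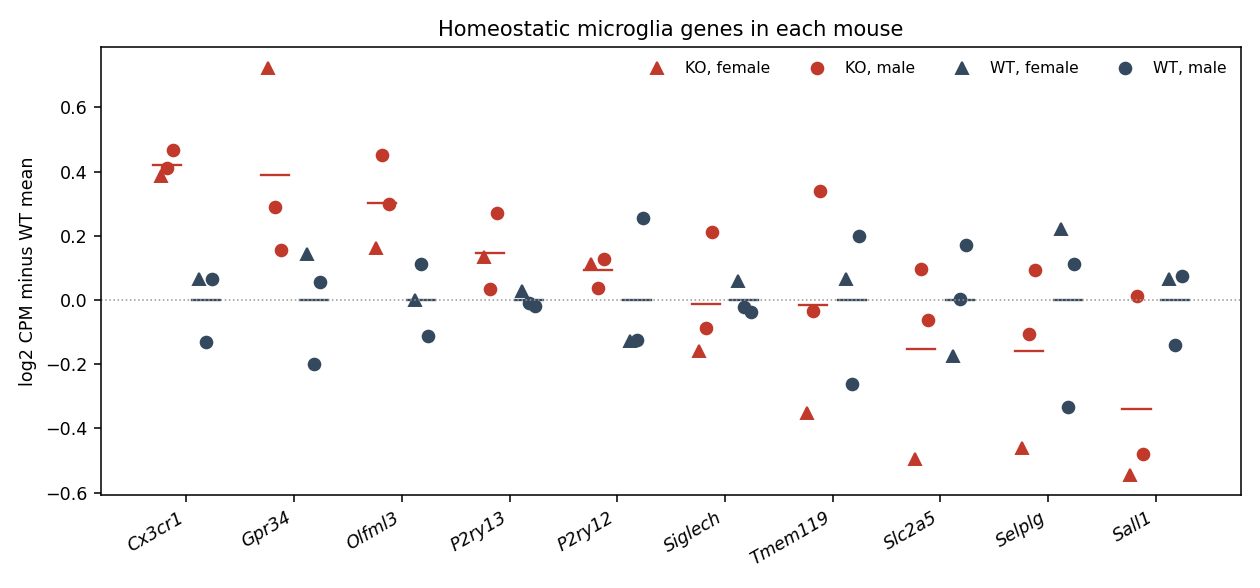
Level of the 10 homeostatic genes in each mouse, as log2 CPM minus the mean of the WT mice, with 3 KO mice to the left of 3 WT mice for each gene. Triangles are females, circles males and bars group means. The KO mice lie above all WT mice for Cx3cr1, Gpr34, Olfml3 and P2ry13, and the groups overlap for the other 6 genes.

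The purinergic and lipid receptors come first. P2RY12 is the ADP receptor that steers microglial processes toward injury, and P2RY13 is a related ADP receptor. P2ry12 had 12.6, 11.98 and 12.8 CPM in KO mice, against 10.7, 10.7 and 14.0 CPM in WT mice. The 3 KO values were close together and lay inside the WT range, whose upper end was WT replicate 3. The log2 fold change was 0.08 (SE 0.13, edgeR adjusted p = 0.884), with a 95% interval, unadjusted here and below, of -0.22 to 0.39. P2ry13 had 6.41, 5.97 and 7.06 CPM in KO mice, against 5.95, 5.80 and 5.76 CPM in WT mice. The groups did not overlap, but the lowest KO and the highest WT values nearly met. Its log2 fold change was 0.15 (SE 0.14, edgeR adjusted p = 0.807, interval -0.16 to 0.46).

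Both ADP receptor genes lie on the minus strand of chromosome 3 (mm10). P2ry13 (ENSMUSG00000036362) spans 59207896 to 59210882 and P2ry12 (ENSMUSG00000036353) spans 59216271 to 59262831, with 5388 bases and no other gene of the table between them. Both lie within Med12l, a gene of the opposite strand with 2321 to 2554 counts per library, against 163 to 195 for P2ry13 and 321 to 414 for P2ry12. In the GENCODE M21 annotation, 9 of 2546 exon bases of P2ry12 and 0 of 2528 of P2ry13 are shared with exons of Med12l. Med12l itself stood at 88.1 ± 3.05 CPM in KO and 82.2 ± 1.80 CPM in WT (SD, n = 3 each; log2 fold change 0.10, SE 0.07, edgeR adjusted p = 0.724). The strand setting of the counting is not given in the sources used here, and whether reads of Med12l were counted to the receptors was not tested.

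The 250 bases before the RefSeq start of each receptor gene (GRCm38.p6, minus strand) are shown because this pair shares a neighbourhood and carries short ETS-type motifs of the kind that PU.1 binds. P2ry13 (chr3:59210883-59211132) holds GAGGAAG and P2ry12 (chr3:59262986-59263235) holds AGGAAGT, each marked in capitals and each on the gene's own strand.
P2ry13: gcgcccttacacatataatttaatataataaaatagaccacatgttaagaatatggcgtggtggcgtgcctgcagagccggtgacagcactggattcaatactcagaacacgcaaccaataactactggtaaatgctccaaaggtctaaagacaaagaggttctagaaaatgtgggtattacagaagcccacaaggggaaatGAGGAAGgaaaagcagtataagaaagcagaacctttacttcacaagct
P2ry12: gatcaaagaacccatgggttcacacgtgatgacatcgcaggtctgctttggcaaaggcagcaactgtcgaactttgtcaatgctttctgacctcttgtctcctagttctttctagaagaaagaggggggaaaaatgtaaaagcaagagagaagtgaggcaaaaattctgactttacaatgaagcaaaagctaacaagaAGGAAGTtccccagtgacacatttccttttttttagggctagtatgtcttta

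The end of the motif lies 41 bases before the start in P2ry13 and 45 bases before it in P2ry12. GAGGAAG, searched on both strands, is in 1 of the 9 promoter entries of the 7 members with an entry, and in 10.6% of 32851 promoters of the same length. AGGAAGT, which overlaps it in 6 letters and was added after the sequences were seen, is in 2 of the 9, one of them an alternative Sall1 start, and in 7.69% of all. Tmem119, Selplg and Gpr34 have no entry.

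GPR34 is a receptor for lysophosphatidylserine, a lipid exposed by damaged membranes. Gpr34 had 8.93, 6.59 and 6.01 CPM in KO mice, against 5.95, 4.68 and 5.59 CPM in WT mice. Every KO mouse was above the WT mice, the KO female (replicate 1) by far the most and KO replicate 3 barely. The log2 fold change was 0.39 (SE 0.15, edgeR adjusted p = 0.471, interval 0.06 to 0.73). The gene (ENSMUSG00000040229, chromosome X, 13632089 to 13640858, plus strand) lies inside Cask, a gene of the opposite strand with 2171 to 2554 counts per library. In GENCODE M21 it shares 0 of its 2090 exon bases with Cask exons, and whether reads of Cask were counted to Gpr34 was not tested. Cask was at 81.8 ± 3.52 CPM in KO and 81.3 ± 4.62 CPM in WT (SD, n = 3 each).

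CX3CR1 is the receptor through which microglia sense fractalkine, a chemokine that neurons display. It had the smallest relative spread between KO mice of the 10 genes and the lowest p. Cx3cr1 had 34.4, 35.0 and 36.4 CPM in KO mice, against 27.6, 24.0 and 27.6 CPM in WT mice. All KO mice lay above all WT mice. The log2 fold change was 0.42 (SE 0.09, interval 0.21 to 0.63), at an edgeR adjusted p of 0.15 over all genes. The adjusted p was 0.0162 in DESeq2, 0.0281 in edgeR with GC content and length trends removed and 0.0459 in edgeR without a filter on low counts, and the other 12 alternatives did not pass, with a range over all 15 of 0.0162 to 0.509. The gene (ENSMUSG00000052336, chromosome 9, 119901616 to 120068283, minus strand) overlaps 5 genes in its span, among them Wdr48 and Gorasp1. In GENCODE M21, 0 of its 4505 exon bases are shared with any of them, but the counted model differs, with 3742 exon bases. Whether reads of these genes were counted to Cx3cr1 was not tested. Wdr48 was at a log2 fold change of 0.03 and Gorasp1 at -0.21 (edgeR adjusted p = 0.916 and 0.649).

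Selplg encodes PSGL-1, the ligand of P-selectin, and is also expressed by blood leukocytes. It had 5.55, 7.11 and 8.18 CPM in KO mice, against 8.95, 6.06 and 8.29 CPM in WT mice. The groups overlapped, with the KO female lowest and the WT female highest. The log2 fold change was -0.16 (SE 0.20, edgeR adjusted p = 0.854, interval -0.63 to 0.30). Tmem119 encodes a membrane protein that marks microglia against blood-derived macrophages, and it lies 17281 bases from Selplg on chromosome 5 (113793729 to 113800516 and 113817798 to 113830501, both on the minus strand, ENSMUSG00000054675 and ENSMUSG00000048163) with no gene of the table between them. Tmem119 had 5.67, 7.07 and 9.19 CPM in KO mice, against 7.58, 6.03 and 8.32 CPM in WT mice. The KO mice held both the lowest and the highest value of the 6. The means were 7.31 ± 1.78 CPM in KO and 7.31 ± 1.17 CPM in WT (SD, n = 3 each), and the log2 fold change was -0.01 (SE 0.20, edgeR adjusted p = 0.989, interval -0.46 to 0.44).

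Siglec-H is a lectin of microglia and plasmacytoid dendritic cells that signals through the adaptor DAP12. Siglech (ENSMUSG00000051504, chromosome 7, 55768178 to 55778925, plus strand) had 7.08, 7.45 and 9.19 CPM in KO mice, against 8.25, 7.81 and 7.72 CPM in WT mice. The WT mice lay between KO replicate 2 and KO replicate 3. Its log2 fold change was -0.01 (SE 0.14, edgeR adjusted p = 0.993, interval -0.33 to 0.32).

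Sall1 encodes the zinc-finger transcription factor that holds microglial identity, and it had the lowest fold change of the 10. It had 7.48, 11.02 and 7.82 CPM in KO mice, against 11.4, 9.92 and 11.5 CPM in WT mice. KO replicates 1 and 3 lay below all WT mice, while KO replicate 2 lay within the WT range. The log2 fold change was -0.33 (SE 0.17, edgeR adjusted p = 0.648, interval -0.71 to 0.06). It was negative in all 15 alternatives, from -0.52 to -0.19, and passed in 0 of them. The gene (ENSMUSG00000031665, chromosome 8, 89027248 to 89044162, minus strand) overlaps no other gene of the table.

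Olfml3 encodes a secreted olfactomedin-like glycoprotein of the matrix, and Slc2a5 encodes GLUT5, a fructose transporter. Olfml3 had 12.4, 15.2 and 13.6 CPM in KO mice, against 11.1, 11.99 and 10.2 CPM in WT mice. Every KO mouse was above the WT mice, with KO replicate 1 just above WT replicate 2. The log2 fold change was 0.30 (SE 0.12, edgeR adjusted p = 0.509, interval 0.03 to 0.58). The gene (ENSMUSG00000027848, chromosome 3, 103733700 to 103738001, minus strand) overlaps a processed transcript, BC027582, that had at most 2 counts in any library. Slc2a5 (ENSMUSG00000028976, chromosome 4, 150119283 to 150144169, plus strand) had 22, 39 and 33 counts in KO mice, against 33, 38 and 42 counts in WT mice. At a mean of 34.5 counts its counting error alone is 17%, against 3.37% to 7.53% for the other members, so a difference of that order was not detectable. Its log2 fold change was -0.15 (SE 0.23, edgeR adjusted p = 0.874, interval -0.67 to 0.36).

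The intervals state which sizes of change these mice allow. For 7 members the interval included 0, and for Cx3cr1, Gpr34 and Olfml3 it lay above 0 before adjustment for the number of genes. The lower bounds of P2ry12, P2ry13 and Siglech were 0.86, 0.89 and 0.80 times the WT level, so larger falls lay outside the intervals of these 3 genes. For Tmem119, Selplg, Sall1 and Slc2a5 the bounds reached down to 0.73, 0.65, 0.61 and 0.63 times, and falls of that size lay within them. A p that misses the threshold does not show that the genotypes have the same level.

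**Figure D2:**
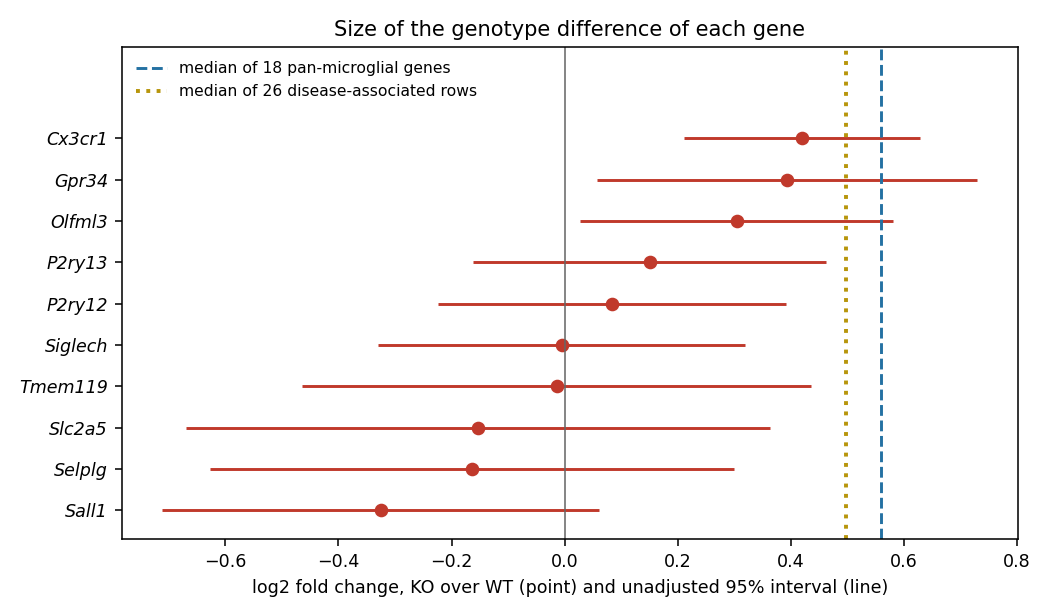
Log2 fold change (KO over WT) of each homeostatic gene, with points for the estimates and lines for the unadjusted 95% intervals. The dashed line is the median of the 18 pan-microglial genes (0.56) and the dotted line that of the 26 disease-associated rows tested (0.50). The intervals of 7 genes end below the dashed line, and those of Cx3cr1, Gpr34 and Olfml3 reach past it. The list behind the dashed line was chosen with its rise in KO known, so this count is not a result about the homeostatic genes.

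The order of levels was compared per length, as CPM per kilobase of exon. In KO, Cx3cr1 led with 9.43 ± 0.27 CPM per kilobase, followed by P2ry12 with 5.24 ± 0.18 (SD, n = 3 each), and the ranges of these neighbours over mice did not overlap. In WT the same 2 genes led, with 7.05 ± 0.54 for Cx3cr1 and 4.95 ± 0.79 for P2ry12. Below them, Gpr34, Olfml3, Tmem119, Selplg, P2ry13 and Siglech lay between 3.43 and 2.34 CPM per kilobase in KO and between 3.16 and 2.31 in WT, and within these 6 each gene's range over mice overlapped that of its neighbour in the order, in both genotypes. Sall1 (1.67 ± 0.37 in KO, 2.09 ± 0.17 in WT) and Slc2a5 (0.33 ± 0.07 in KO, 0.37 ± 0.05 in WT) came last in both. Gpr34 held rank 3 in KO and rank 6 in WT, and Tmem119 rank 5 in KO and rank 3 in WT, within the part of the order where neighbours overlap.

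**Figure D3:**
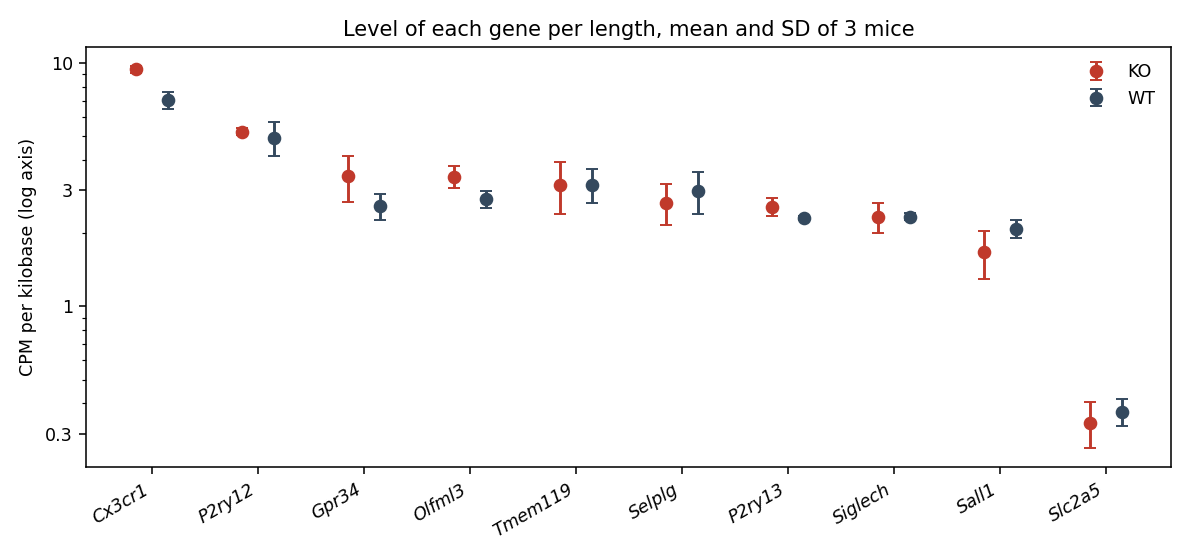
Level of each gene per kilobase of exon (log axis), with the mean and SD of 3 KO mice to the left and of 3 WT mice to the right, ordered by the KO mean. Cx3cr1 and P2ry12 are highest in both genotypes and Slc2a5 is lowest, at 0.33 CPM per kilobase in KO and 0.37 in WT.

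The 10 members did not all vary alike over the mice. KO replicate 1, the KO female, was the lowest of the 6 libraries for 5 members (Tmem119, Selplg, Siglech, Sall1 and Slc2a5) and the highest for Gpr34, and KO replicate 3 was the highest for 4. The shares of all genes with their lowest or highest value in these libraries are not given here, so these counts only describe the members. The median of the members relative to the WT mean was -0.02, 0.03 and 0.18 on the log2 scale in KO mice, against 0.06, -0.13 and 0.07 in WT mice. The groups overlapped. Between the 2 females, KO minus WT was -0.68 for Selplg and -0.42 for Tmem119 in log2 CPM, while between the males it was 0.10 and 0.18. The male difference minus the female one was 0.78 (SE 0.33) for Selplg and 0.60 (SE 0.36) for Tmem119, with edgeR adjusted p-values of 0.243 and 0.395 for the interaction of sex and genotype, and 0.243 was the lowest of the 10 members. With 1 female per genotype, sex and the single mouse cannot be told apart. In the males alone, the fold change was 0.17 for Tmem119, 0.09 for Siglech and 0.08 for Selplg, each opposite in sign to the value over all mice and with edgeR adjusted p-values of 0.888 to 0.95. P2ry12 was at -0.0021 there (edgeR adjusted p = 0.999), while Cx3cr1 was at 0.46 and Sall1 at -0.19 (edgeR adjusted p = 0.095 and 0.855).

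Pan-microglial genes are those that microglia express in both states. All 18 were above 0, as were 8481 of all 16934 genes tested, and their median was 0.56. In 16 every KO mouse lay above every WT mouse, as in 7.77% of all genes. The list and the members were chosen with earlier results of these data known. With p-values adjusted over all genes, of which 0.283% passed, 1 of the 18 rose and 0 fell. This was Ctss, the cathepsin S gene, with 96.0, 86.4 and 97.5 CPM in KO mice, against 62.0, 53.8 and 59.7 CPM in WT mice (log2 fold change 0.67, SE 0.08, edgeR adjusted p = 0.0214). Csf1r, the CSF1 receptor gene that microglia need to survive, was at 49.5 ± 5.88 CPM in KO and 42.3 ± 3.90 CPM in WT (SD, n = 3 each; log2 fold change 0.22, SE 0.11, edgeR adjusted p = 0.625). Tyrobp, the gene of the adaptor DAP12 used by Siglec-H, was at 0.88 (SE 0.15, edgeR adjusted p = 0.0663). The median of the list was 0.55, 0.39 and 0.60 above the WT mean in KO mice, against 0.07, -0.14 and 0.03 in WT mice. For 7 of the 10 homeostatic members, the interval of the fold change ended below the pan-microglial median of 0.56, and for Cx3cr1, Gpr34 and Olfml3 it included that value. Because that list was chosen with its rise known, any gene near 0 with a narrow interval ends below its median too. The share of all genes for which this holds was not computed, so the count of 7 is not a result about the homeostatic genes.

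The homeostatic genes were also set against the pan-microglial genes of the same library. That list was chosen with its rise in KO known, its mean log2 CPM minus the WT mean being 0.50, 0.42 and 0.62 in KO mice, against 0.09, -0.12 and 0.03 in WT mice, so a gene at the same level in all mice falls by that much on this scale. The mean log2 CPM of the members minus that of the pan-microglial genes was -0.66, -0.42 and -0.59 in KO mice, against -0.17, -0.10 and -0.07 in WT mice, a difference in means of -0.45. The groups did not overlap. The difference ran from -0.52 to -0.40 when each library in turn was left out. Taken gene by gene, relative to the pan-microglial mean, every KO mouse lay below every WT mouse in 7 members (P2ry12, P2ry13, Tmem119, Siglech, Sall1, Selplg and Slc2a5) and the groups overlapped in Gpr34, Cx3cr1 and Olfml3. The same was so for 74.8% of all genes tested, so the count of 7 in 10 is near the background, and neither it nor the difference of -0.45 is a result about the homeostatic genes.

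**Figure D4:**
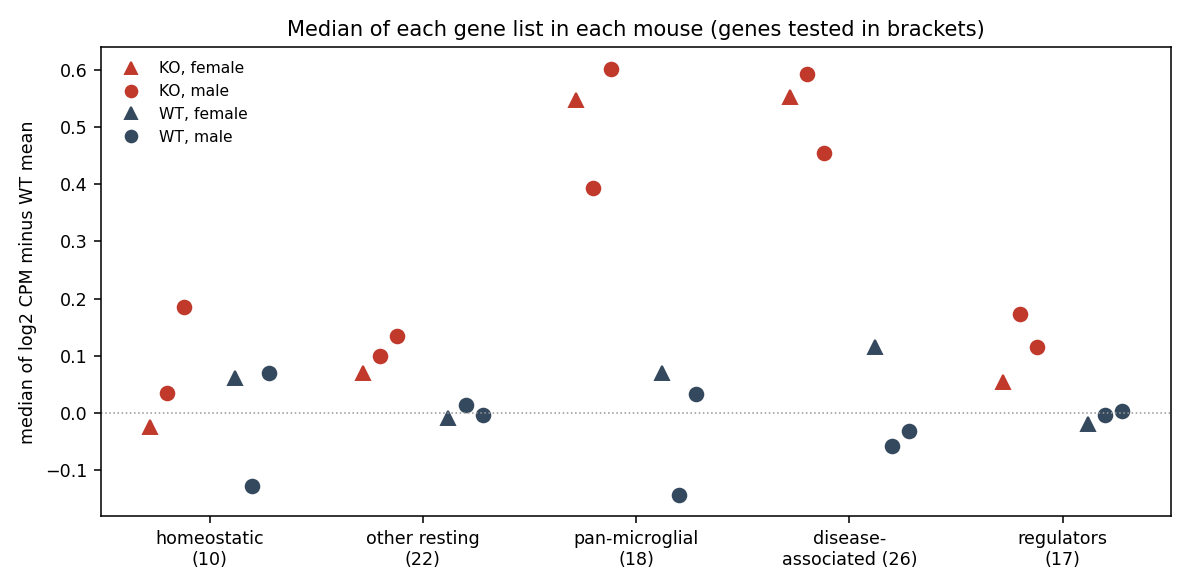
Median of 5 gene lists in each mouse, as log2 CPM minus the WT mean, with KO mice to the left of WT mice in each list. Triangles are females and circles males. KO mice lie at 0.39 to 0.60 for the pan-microglial list and 0.45 to 0.59 for the disease-associated list, and at -0.02 to 0.18 for the homeostatic genes.

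Among 22 other genes of resting microglia, 2 rose, 0 fell and 20 did not pass, with p-values adjusted over all genes, of which 0.283% passed. Their median was 0.10, and 16 were above 0, as were 8481 of all 16934 genes tested. An unadjusted p under 0.05 was met by 4, as by 8.96% of all genes. In 7 every KO mouse lay above every WT mouse, as in 7.77% of all genes, and in 0 did every KO mouse lie below, as in 6.35%. This list too was chosen with earlier results of these data known. Fcrls, an Fc receptor-like gene of mouse microglia, had 13.1, 7.62 and 9.48 CPM in KO mice, against 6.22, 2.64 and 2.70 CPM in WT mice (log2 fold change 1.46, SE 0.18, edgeR adjusted p = 0.0214). Its groups did not overlap, and the female was the highest of each genotype. Sparc and Serinc3, the most abundant genes of the list, which other brain cells express too, were at -0.01 and 0.05 (edgeR adjusted p = 0.985 and 0.864).

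Regulators of the homeostatic programme gave 0 higher and 0 lower of 17 tested in edgeR, 0 in DESeq2 and in limma-voom, and 8 at an unadjusted p under 0.05, as had 8.96% of all genes. The median was 0.16. The genes named next were chosen for their role after their values were seen. Irf8, a microglial transcription factor gene, was at 3.19, 3.06 and 3.08 CPM in KO mice, against 2.30, 2.11 and 1.95 CPM in WT mice (log2 fold change 0.55, SE 0.17, edgeR adjusted p = 0.342). Mef2c and Smad3, which neurons also express, were at -0.22 and -0.19 with every KO mouse below every WT mouse (edgeR adjusted p = 0.427 and 0.533). Tgfb1, the TGF-beta ligand gene, was at -0.06 and Tgfbr1, a receptor gene for it, at 0.26 (edgeR adjusted p = 0.949 and 0.483). The most abundant gene of the list, Mef2a, was at 0.02 (edgeR adjusted p = 0.969).

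Of the ligand, adaptor and purinergic partner genes, 11 rows were tested, 0 passed in edgeR, DESeq2 or limma-voom, and 0 had an unadjusted p under 0.05 in edgeR. Over all genes tested, 0.283% passed in edgeR and 8.96% had an unadjusted p under 0.05. The most abundant, the adenosine receptor gene Adora1 and the G protein gene Gnai2, were at 0.03 and -0.10 (edgeR adjusted p = 0.915 and 0.834). The following were likewise chosen for their role. Cx3cl1, the gene of fractalkine, had 74.4, 80.7 and 90.9 CPM in KO mice, against 116, 85.8 and 87.5 CPM in WT mice, with overlapping groups (log2 fold change -0.22, SE 0.13, edgeR adjusted p = 0.687). Entpd1, whose product CD39 degrades ATP and ADP, was at 0.26, and Kcnk13, which encodes the microglial potassium channel THIK-1, at -0.36 (edgeR adjusted p = 0.644 and 0.604). Selp, the gene of the P-selectin that PSGL-1 binds, had at most 2 counts in any library and was not tested.

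The disease-associated microglia genes were mostly above 0. Of 26 rows tested, with Clec7a present as 2 gene models, 24 were above 0, as were 8481 of all 16934 genes tested. The median was 0.50. In edgeR 6 rose and 0 fell, where 0.283% of all genes passed. An unadjusted p under 0.05 was met by 18 rows, as by 8.96% of all genes. In 16 rows every KO mouse lay above every WT mouse, as in 7.77% of all genes. The list was chosen with its behaviour in these data known. Of the 6, Lyz2, a lysozyme gene of phagocytes, had 54.2, 41.3 and 56.8 CPM in KO mice, against 18.9, 18.02 and 15.9 CPM in WT mice (log2 fold change 1.53, SE 0.13, edgeR adjusted p = 0.0106). Every KO mouse had more than any WT mouse. Without WT replicate 2 or WT replicate 3, 0 genes of the pan-microglial, other resting and disease-associated lists passed in edgeR, and without KO replicate 2 the pan-microglial list had 0. The other 5 genes that rose were a Clec7a model at 1.85, Lpl at 1.73, Lgals3 at 1.29, Cd68 at 1.26 and Gpnmb at 1.205 (edgeR adjusted p = 0.0106 to 0.044), genes of a pathogen receptor, a lipase, a galectin, a lysosomal protein and a membrane glycoprotein. The second Clec7a model was at 1.75 and did not pass (edgeR adjusted p = 0.0565). Fth1 and Ctsb, the most abundant of the list, were at 0.19 and 0.05 (edgeR adjusted p = 0.549 and 0.847).

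Markers of other cells that a cerebellar piece can hold were counted in the same way. Of all 16934 genes tested, 8481 were above 0, 0.283% passed and 8.96% had an unadjusted p under 0.05 in edgeR. Each count below stands beside these shares. Of 11 border-associated macrophage markers 9 were tested and 8 were above 0 (median 0.52, 0 passed, 0 at an unadjusted p under 0.05), with summed levels of 15.1 to 16.4 CPM in KO and 11.4 to 13.6 CPM in WT. The median was 0.24 without KO replicate 1, 0.25 without WT replicate 1 and 0.30 without KO replicate 2 or WT replicate 2. Their most abundant genes were Stab1, at 6.86 ± 1.07 CPM in KO and 5.96 ± 0.11 CPM in WT, and Mrc1, at 3.04 ± 0.40 CPM in KO and 2.14 ± 0.74 CPM in WT (SD, n = 3 each). Of 11 monocyte and neutrophil markers 7 were tested, with sums of 42.5 to 53.4 CPM in KO and 35.8 to 46.3 CPM in WT (median 0.55, 0.35 without WT replicate 2 and 0.37 without KO replicate 3, 0 passed, 2 at an unadjusted p under 0.05), mostly Vcan, which glia also express. Of 10 lymphocyte markers 1 was tested, and the other 9 had at most 14 counts in any library. All 6 red blood cell genes were above 0, with sums of 79.8 to 160 CPM in KO and 73.3 to 89.6 CPM in WT (0 passed, 4 at an unadjusted p under 0.05), and with a median of 0.65, or 0.33 without KO replicate 3. In these 4 lists no marker was at 0 in all libraries. Of 11 endothelial and pericyte markers 0 passed, with a median of 0.07. The choroid plexus markers, all 10 above 0 with a median of 0.55, varied within genotypes as given above, and their median was -0.26 without KO replicate 1 or WT replicate 1 and in the males alone, 0.079 without the sex term, 1.04 without WT replicate 2 and 1.30 without KO replicate 3. The part of these cells in the values of the homeostatic genes was not tested.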

How the data were processed

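Cerebellar RNA of 3 KO and 3 WT mice was analysed from 1 table of raw counts that the authors deposited, whole numbers per gene and library with exon length, symbol and mm10 coordinates, per the file headers. The submitters' processing notes name STAR and mm10. How reads were counted (tool, strand, annotation) is not given in the sources used here. Strands and exons came from GENCODE M21 (78.8% of matched genes have identical positions) and promoters from RefSeq GRCm38.p6. Counts were fitted in R 4.3.3 with edgeR 4.0.16: filterByExpr (minimum count 10, minimum total 15), TMM, sex and genotype as terms, robust quasi-likelihood F test (legacy version, 3 residual degrees of freedom), two-sided, Benjamini-Hochberg over 16934 genes, threshold 0.05. The SE is the log2 fold change over the square root of F, and 95% intervals use the fit's degrees of freedom. The biological coefficient of variation was 11.2%. Per-library log2 CPM values have a prior count of 2. Replicate numbers follow the order of deposit, and the labels do not say whether mice were littermates. The sample titles hold codes, 1 of them shared by WT replicate 1, KO replicate 1 and KO replicate 2, that the labels do not explain, and they entered no fit. Pairs of libraries within a genotype had a chi-square over degrees of freedom of 7.45 to 31.1, above sampling noise.

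The members and all 13 lists (176 entries, 176 found, 2 through synonyms) were chosen with earlier results of these data known. Companion genes named are those past the threshold (at most 6 a list), the 2 most abundant, or those marked as chosen later. Some of these are given in counts only, and 1 result is not reported here. Alternatives were RLE factors, 2 other filters, DESeq2 1.42.0, omitting 1 library at a time, a fit without sex, the males alone, limma-voom from limma 3.58.1, the newer version of edgeR's test, GC and length offsets (loess, span 0.5, GC content for 99.0% of tested genes) and a threshold of 0.10. The interaction of sex and genotype and the comparison of single members with the pan-microglial mean were added after seeing the data. The fits were tested on simulated counts.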

Additional observations from a re-analysis of the deposited data

How the results depend on the processing

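Of the homeostatic genes, 0 passed lower in any of 16 alternatives, and 1 (Cx3cr1) passed higher without a filter, in DESeq2 and with GC and length offsets. Their median fold change ran from -0.02 to 0.14, changing sign without KO replicate 3 or WT replicate 2. Fold changes near 0 changed sign, and in none of these cases did either value pass. For Tmem119 they were 1.5e-05 in limma-voom, 0.0012 without the sex term, 0.17 in males only, 0.080 with offsets, and -0.20 to 0.18 with a library left out (positive without KO replicate 1, KO replicate 2, WT replicate 1 or WT replicate 3). For P2ry12 they were -0.0021 in males only and -0.0017 to 0.22 with a library left out (negative without KO replicate 1 or WT replicate 2). For Siglech they were 0.091 in males only and -0.11 to 0.099 with a library left out (positive without KO replicate 1, KO replicate 2 or WT replicate 1). For Selplg they were 0.083 in males only and -0.36 to 0.091 with a library left out (positive without KO replicate 1 or WT replicate 1). Over all genes the counts depended on the fit. Beside 23 higher and 25 lower, they were 44 lower with RLE factors, 45 lower where genes averaged 1 CPM or more, 78 and 121 without a filter, 91 and 141 in DESeq2, 40 and 71 in males only, 117 and 185 with offsets, 41 and 68 at a threshold of 0.10, and 0 to 67 higher and 1 to 89 lower with a library left out, with 0 and 1 without WT replicate 2 or WT replicate 3. Each of the 6 libraries, left out, moved at least 1 of these counts by over 1.5 times. The pan-microglial calls ran from 0 to 5 (1 in the reported fit), the disease-associated ones from 0 to 13 (6) and the other resting genes from 0 to 2 (2), each at 0 without WT replicate 2 or WT replicate 3, and the pan-microglial ones at 0 without KO replicate 2 too. The cause was not tested. The medians ran from 0.47 to 0.63, 0.34 to 0.66 and 0.07 to 0.16. The RLE factors moved the median of all genes by 0.0013. Counting depth limits Slc2a5.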
